A study of Mus musculus with 2 samples.

Results

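The replication-dependent histone genes were taken as every gene in the deposited count matrices whose symbol starts with Hist1h, Hist2h, Hist3h or Hist4h. This rule gave 65 members of 28695 genes, with 65 in the wild-type matrix and 63 in the other, where Hist1h2aj and Hist1h2bq are not listed. By family, 6 encode linker histone H1, 18 encode H2A, 17 encode H2B, 11 encode H3 and 13 encode H4. On mouse build GRCm38, 53 members lie on chromosome 13, 8 on chromosome 3, 3 on chromosome 11 and 1 on chromosome 6. The annotation calls Hist1h2aj, Hist1h2al and Hist3h2bb-ps pseudogenes and the other 62 members protein-coding.

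Single-cell RNA-seq was run on colon of C57BL/6 mice aged 8 to 10 weeks that had been given DSS (dextran sulfate sodium), an agent that injures the colonic epithelium and causes colitis. The cells of one library were from wild-type animals, and those of the other from animals labelled Elf-1-/-, that is, knockout for the ETS-family transcription factor Elf-1. Both groups received DSS, and no untreated colon is part of the comparison. Each library pooled dissociated cells of 3 mice from the proximal colon, the distal colon and the rectum. The labels do not name a deleted part of the gene, and Elf1 was detected at 192 counts per 1000000 UMIs (CPM) in the wild-type library and 181 in the library labelled knockout, so the genotype label could not be checked from its level.

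With 1 library a genotype, no difference between the libraries could be tested. Intervals below are exact 95% intervals for counting error of unique molecular identifiers (UMIs), and they do not cover differences between mice, dissections or runs. The 2 matrices held 8635 and 10012 barcodes (32481613 and 39750319 UMIs) for wild type and labelled knockout, of which 7718 and 9474 were kept, with medians of 2022.5 and 2636 UMIs. The libraries shared 57 of 18647 barcodes. Clusters were named from marker genes, so each class is to be read as B-like, T-like and so on, and 29 and 168 cells stayed unnamed. Epithelial cells made up 1053 kept cells of the wild-type library and 63 of the other. Epithelial marker RNA was also detected outside the epithelium, at 409 to 961 CPM in the other compared classes of the wild-type library and 58.3 to 132 in those of the library labelled knockout, and its part in the results was not tested.

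Replication-dependent histone genes are transcribed mainly in S phase, when newly made DNA has to be packed into nucleosomes. Their messenger RNAs usually have no poly(A) tail and end just after a short stem-loop, which is bound by the stem-loop binding protein SLBP and is needed for processing, translation and rapid decay when DNA synthesis stops. Some members are also made as longer, polyadenylated messages that run past the stem-loop to an ordinary poly(A) signal, a form known from differentiated and non-dividing cells. Core histones H2A, H2B, H3 and H4 form the nucleosome, whereas H1 binds the linker DNA between nucleosomes.

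The stem-loop was searched for in the annotated transcripts, because members differ in whether their message ends there. A stem-loop of 16 bases was found in 42 of the 65 members, in 6 versions, and 24 members shared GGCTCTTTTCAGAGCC. The sites below are shown with 5 bases on each side, 5′ to 3′ as DNA letters, with the 16-base stem-loop in capitals. Hist1h1c and Hist3h2a stand for messages annotated past the loop, Hist1h2bj and Hist1h4b for messages that end near it, and Hist1h4i, Hist1h3e and Hist2h2ac for other versions of the loop.
Hist1h1c: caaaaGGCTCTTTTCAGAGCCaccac
Hist1h1e: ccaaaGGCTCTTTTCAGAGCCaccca
Hist3h2a: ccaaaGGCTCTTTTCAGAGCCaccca
Hist1h2bj: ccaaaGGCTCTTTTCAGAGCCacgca
Hist1h4d: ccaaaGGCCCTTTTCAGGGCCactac
Hist1h4b: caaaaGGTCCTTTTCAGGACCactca
Hist1h4i: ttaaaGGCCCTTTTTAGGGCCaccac
Hist1h3e: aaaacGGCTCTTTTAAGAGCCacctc
Hist2h2ac: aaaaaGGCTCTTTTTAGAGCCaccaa

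In 20 members the annotated transcript ended within 100 bases of the stem-loop with no poly(A) signal after it, as in Hist1h2bj (23 bases after it) and Hist1h4b (28 bases). In 15 members it ran on to at least 1 AATAAA or ATTAAA poly(A) signal, as in Hist1h1c (840 bases after the loop, 2 signals), Hist1h4d (770 bases, 1 signal) and Hist3h2a (1643 bases, 2 signals). This group includes Hist1h4h, which ends 46 bases after the loop but holds 1 signal there. In 7 members, among them Hist1h1e (1153 bases), it ran on without either signal. No stem-loop was found in the annotated transcript of the other 23 members. These include Hist1h2bc, whose 1156-base transcript holds 1 poly(A) signal, and Hist1h1b, whose 743-base annotated transcript holds none.

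Promoters from RefSeq (GRCm38.p6), 300 bases from 250 before to 50 after the start, were matched to 56 members. They were scanned on both strands for TATAAA (the TATA box), CCAAT (bound by NF-Y), AAACACA (the H1 box) and ATTTGCAT (the octamer bound by OCT1), and matches of different motifs may share end bases. TATAAA was found in 57.1% of the members' promoters and 14.2% of all 27025 promoters, and CCAAT in 83.9% and 37.9%. Every matched H1, H2A, H2B and H3 promoter held CCAAT, against 3 of 12 H4 promoters. AAACACA was found in 5 of 6 H1 promoters and 7.14% of all promoters. ATTTGCAT was found in 6 of 15 H2A and 5 of 14 H2B promoters, in no H1, H3 or H4 promoter, and in 1.75% of all promoters. A match is a description of the sequence and does not show binding. The promoters of 2 H1 genes that differed in their relation to S phase genes are printed below, 5′ to 3′ on the gene's strand, with motif matches in capitals: Hist1h1c (H1f2 in RefSeq) at chr13:23738557-23738856 on the plus strand and Hist1h1b (H1f5) at chr13:21780576-21780875 on the minus strand. Both hold CCAAT and AAACACA, and TATAAA was found in that of Hist1h1b only.
Hist1h1c: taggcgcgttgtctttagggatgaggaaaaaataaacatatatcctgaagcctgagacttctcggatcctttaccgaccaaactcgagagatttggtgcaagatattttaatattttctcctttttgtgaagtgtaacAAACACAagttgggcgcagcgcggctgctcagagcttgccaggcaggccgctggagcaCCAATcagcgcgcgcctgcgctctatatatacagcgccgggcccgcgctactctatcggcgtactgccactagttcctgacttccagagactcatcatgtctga
Hist1h1b: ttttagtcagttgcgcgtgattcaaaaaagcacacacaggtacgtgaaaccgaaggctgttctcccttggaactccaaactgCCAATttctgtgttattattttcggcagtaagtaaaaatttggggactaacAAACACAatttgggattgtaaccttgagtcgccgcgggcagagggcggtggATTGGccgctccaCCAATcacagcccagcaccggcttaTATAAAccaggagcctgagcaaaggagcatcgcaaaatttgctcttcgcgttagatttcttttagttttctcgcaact

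The 16 members with the most UMIs held 84.5% of all member UMIs in kept cells. Hist1h2bc, an H2B gene, alone held 33.0% of them in the wild-type library and 43.6% in the library labelled knockout. Hist1h1c, which encodes linker histone H1.2, held 20.6% and 15.5%. These are shares of captured molecules and depend on the 3′ end of each message as well as on its amount. Of the 65 members, 55 reached 50 UMIs over all kept cells of both libraries and 10 did not.

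Among the named classes, histone transcripts were most abundant in mast cells, epithelial cells and B cells in the wild-type library and in germinal centre B cells, mast cells and epithelial cells in the library labelled knockout. Summed over the members, wild-type mast cells and basophils had 2917 CPM, epithelial cells 2908, B cells 2697, germinal centre B cells 2374 and T and innate lymphoid cells 1535. The corresponding levels in the library labelled knockout were 1266, 1195, 659, 1994 and 1143. Mast cells numbered 85 and 19, germinal centre B cells 279 and 34, and epithelial cells 1053 and 63, so these classes are given as levels only. Stromal classes were lower, with fibroblasts at 650 and 534, endothelial cells at 608 and 530, and smooth muscle cells and pericytes at 537 and 419. Erythroid cells had the lowest sums, at 86.8 and 45.4. Erythroid marker genes took 938811 and 938538 CPM in those cells, which left few UMIs for members. These sums were therefore low in advance and are not comparable with those of other classes. The unnamed cluster of 29 and 168 cells stood at 3922 and 1950.

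**Figure D1:**
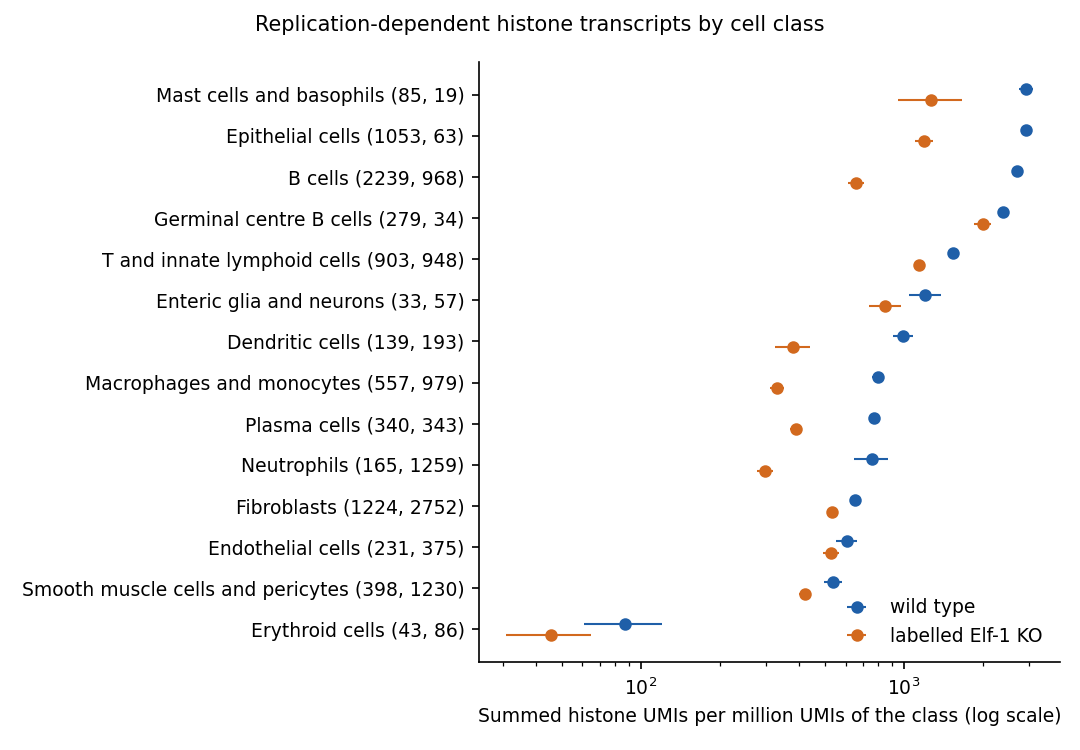
Summed CPM of the 65 histone members (log axis) in each cell class, for the wild-type library and the library labelled Elf-1 knockout, with exact 95% counting intervals as bars and the number of cells in each library in parentheses. B cells stand at 2697 and 659, whereas fibroblasts stand at 650 and 534.

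Over all kept cells, histone transcripts were lower in the library labelled knockout. The members summed to 1618 CPM in the wild-type library (48262 UMIs) and 533 in the other (19847 UMIs), a ratio of 3.04 (interval 2.99 to 3.09). Of the 55 members with 50 UMIs, 48 were at least 2-fold lower with an interval that excluded 1 and 0 were higher, where 18.3% of all 15167 genes were lower and 7.29% higher by the same rule. The median log2 ratio of labelled knockout over wild type was -2.16 for the members and -0.25 for all genes. The libraries differ in cell makeup, and without epithelial cells the log2 ratio of the sum was -1.23 in place of -1.60, with 36 of 48 members lower.

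The 5 families were all lower in the library labelled knockout over all kept cells, with linker H1 and core H3 furthest apart. H1 members summed to 522 and 119 CPM in the wild-type and labelled knockout libraries, a ratio of 4.39, and H3 members to 77.6 and 19.7, a ratio of 3.93. H4 stood at 204 and 68.1 (2.99-fold), H2A at 168 and 67.0 (2.51-fold) and H2B at 646 and 259 (2.50-fold). The H2B sum was mostly Hist1h2bc, at 534 and 232 CPM. Ratios of families and of single members over all kept cells also carry the difference in cell makeup, above all in epithelial cells. Their order therefore need not hold within a class, and in B cells H1 and H2B, not H3, were furthest apart.

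Within H1, the subtypes known for expression outside S phase and those tied to dividing cells both differed. Hist1h1c had 334 and 82.6 CPM, a ratio of 4.04, and Hist1h1e (H1.4) had 95.6 and 21.4, a ratio of 4.46. Hist1h1b (H1.5) had 55.7 and 9.42, a ratio of 5.91. Hist1h1d (H1.3) had 24.4 and 2.68, and its ratio of 9.11 was the highest among the 16 most abundant members. Within B cells alone its ratio was 4.02 (interval 2.16 to 8.28). All 4 were lower in the library labelled knockout.

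Among the core histones, 3 of 5 abundant H4 genes and 2 of 3 abundant H2B genes differed by more than their families' sums. The H4 genes Hist1h4h, Hist1h4i and Hist1h4n stood at 29.9, 29.1 and 20.6 CPM in the wild-type library and at 7.54, 6.52 and 3.52 in the library labelled knockout. Hist1h4d (54.2 and 23.1) and Hist1h4c (32.4 and 16.7) were closer, at ratios of 2.35 and 1.94. The H2B genes Hist1h2bj (26.9 and 6.12) and Hist1h2bg (16.9 and 3.65) had ratios of 4.39 and 4.64, against 2.30 for Hist1h2bc. The H3 gene Hist1h3e stood at 17.6 and 3.54, a ratio of 4.98, and the H2A gene Hist1h2ae at 47.1 and 15.6. Hist2h2ac, another H2A gene, had a ratio of 2.79. The H2A gene Hist3h2a stood apart from the other abundant members, at 21.8 and 17.9, a ratio of 1.22.

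The lowest ratios of labelled knockout over wild type were 0.0356 for Hist1h4f, 0.0713 for Hist1h2ah and 0.0739 for Hist1h4j. They rested on 6, 9 and 6 UMIs in the library labelled knockout. Most wild-type UMIs of each of these genes came from epithelial cells, which were far fewer in the library labelled knockout. These low ratios therefore also carry the difference in cell makeup. The highest ratio was 1.73 (interval 1.29 to 2.36) for Hist2h2aa2, an H2A gene at 2.21 and 3.84 CPM. Next were 0.821 for Hist3h2a and 0.595 for Hist1h2ac. The direction of Hist2h2aa2 was the opposite when each cell was thinned to 1000 UMIs, at a log2 ratio of -0.25. Near-identical coding sequences are shared by many H2A, H2B, H3 and H4 genes, and the labels and processing notes do not say how reads that fit several copies were counted, so values of single core histone genes are uncertain while family sums are less so.

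B cells, at 2239 and 968 cells, showed the largest gap in the histone sum of the 9 classes that reached 100 cells on both sides. Their members summed to 2697 and 659 CPM, a ratio of 4.09 (interval 3.82 to 4.40). Of 21 members with 50 UMIs in the class, 17 were lower in the library labelled knockout and 0 were higher, where 4.65% of all genes tested in B cells were lower and 4.77% higher. Most of the sum came from 2 genes. Hist1h1c stood at 791 and 121 CPM (2677 and 158 UMIs), a ratio of 6.51 (5.55 to 7.70), and Hist1h2bc at 1065 and 193, a ratio of 5.52 (4.85 to 6.30). They held 29.3% and 39.5% of the wild-type member UMIs of the class, and without both the log2 ratio of the sum was -1.29 in place of -2.03.

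In B cells the H1 sum was 1053 and 209 CPM and the H2B sum 1169 and 237, ratios of 5.03 and 4.94. H4 (259 and 89.2) and H3 (69.8 and 25.4) had ratios of 2.90 and 2.75, and H2A (147 and 98.4) had 1.49. Hist1h1e stood at 174 and 57.7, Hist1h4i at 63.0 and 10.0, and Hist1h2bg at 31.3 and 3.1. The lowest ratios of labelled knockout over wild type were 0.0982 for Hist1h2bg and 0.128 for the H3 gene Hist2h3b. The exception was Hist3h2a, at 29.6 and 53.0 CPM, 1.79-fold higher in the library labelled knockout (1.30 to 2.46).

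The B-cell gap was present in each of the main B clusters, although the libraries filled them unequally. Cluster 5 held 88.7% of wild-type and 36.6% of labelled knockout B cells, and its member sums were 2712 and 625 CPM. Cluster 2 held 11.3% and 63.4%, and its member sums were 2538 and 684. Heat shock and immediate early genes, which respond to stress and dissociation, were also lower in B cells of the library labelled knockout. They summed to 39614 and 22998 CPM, with 9 of 18 genes lower and 1 higher, where 4.65% and 4.77% of all genes tested were. This list was lower in stromal classes too. Fibroblasts had 7 of 18 lower and 0 higher, where 13.3% and 3.34% of genes tested were. Endothelial cells had 9 of 18 lower and 0 higher, where 6.65% and 3.75% were. The part of these genes in the histone gap was not tested.

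The share of B cells in which any member was detected differed in the same direction. After thinning each cell to 1000 UMIs, a member was detected in 77.5% of wild-type and 38.4% of labelled knockout B cells (unthinned, 84.1% and 44.4%). In erythroid cells the thinned shares were 9.30% and 4.71%. Erythroid marker genes took 938811 and 938538 CPM in those cells, so few UMIs were left for members. Low erythroid shares were thus set in advance and are no reference for the B-cell shares. The median depth was 1355 and 1152 UMIs in B cells and 9072 and 6827.5 in erythroid cells, and 441 and 306 B cells were too shallow to be thinned. Hist1h1c was detected in 40.4% and 10.6% of thinned B cells, against 0 of 43 wild-type erythroid cells and 2.35% of those labelled knockout. Detection in 3 of the 43 cells would be a share of 6.98%. Without thinning it was detected in 47.7% and 11.8% of B cells and in 6.98% (3 of 43) and 8.14% of the deeper erythroid cells.

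T and innate lymphoid cells, at 903 and 948 cells, showed a small gap in the sum and a mix of directions among members. The members summed to 1535 and 1143 CPM, a ratio of 1.34 (1.27 to 1.42), with 4 of 26 members lower and 1 higher, where 3.58% and 5.23% of all genes tested in the class were lower and higher. Hist1h1c had 327 and 110 CPM, a ratio of 2.97 (2.55 to 3.46), and the H1 sum was 538 and 266. H2A went the other way, at 226 and 285, 1.26-fold higher in the library labelled knockout (1.11 to 1.43). Hist1h2ag was the member called higher, at 8.1 and 27.5 (3.42-fold, 1.92 to 6.48).

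Among other T-cell members, Hist1h1b, an H1 subtype typical of dividing cells, stood at 78.5 and 76.2 CPM. Besides Hist1h1c, the members called lower were Hist1h2be, Hist1h2bg and Hist1h1d, at labelled knockout over wild-type ratios of 0.307, 0.364 and 0.497. Hist1h2ae stood at 70.9 and 108, a ratio of 1.52, but was lower in the library labelled knockout after thinning (log2 ratio -0.15) and by the mean over cells (-0.08). Hist1h2ab, at a ratio of 1.53, was likewise lower by the mean over cells, at -0.34. Without Hist1h1c and Hist1h2bc the log2 ratio of the T-cell sum was -0.16, in place of -0.43.

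Myeloid classes were lower in the library labelled knockout, and Hist1h1c and Hist1h2bc were their most abundant members. Macrophages and monocytes (557 and 979 cells) summed to 796 and 329 CPM, a ratio of 2.42 (2.24 to 2.61), with 3 of 6 members lower and 0 higher, where 6.43% and 4.64% of genes tested were. Hist1h1c stood there at 212 and 49.4, Hist1h1e at 30.6 and 11.5, and Hist1h2bc at 345 and 178, and Hist1h2ae had a labelled knockout over wild-type ratio of 0.394. Dendritic cells (139 and 193 cells) summed to 993 and 378, and neutrophils (165 and 1259 cells) to 753 and 298, ratios of 2.63 (2.20 to 3.14) and 2.53 (2.14 to 2.98). The ratio of Hist1h2bc was below that of the sum in macrophages and monocytes (1.94) and neutrophils (2.10). In dendritic cells it was above that of the sum (3.35).

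Only Hist1h1c and Hist1h2bc reached 50 UMIs in either of those smaller myeloid classes. Both were lower in dendritic cells (labelled knockout over wild type 0.406 and 0.299), where 8.63% of genes tested were lower and 12.3% higher. Both were also lower in neutrophils (0.343 and 0.477), where 8.73% were lower and 6.12% higher. Plasma cells, at 340 and 343 cells, summed to 772 and 389 CPM, a ratio of 1.98 (1.87 to 2.10), with 4 of 13 members lower and 0 higher, against 6.84% and 4.56% of genes tested. Plasma cell Hist1h1c stood at 324 and 141, Hist1h1e at 50.3 and 14.8, Hist1h1b at 19.4 and 5.7, and Hist1h2bc at 184 and 105. Hist3h2a was 1.64-fold higher in plasma cells of the library labelled knockout (1.15 to 2.36), but lower after thinning (log2 ratio -1.21), and Hist1h4i stood at a ratio of 0.596.

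Stromal classes differed least. Fibroblasts (1224 and 2752 cells) summed to 650 and 534 CPM, a ratio of 1.22 (1.17 to 1.27), a direction that turned under TMM scaling (log2 ratio 0.09, against -0.28). Of 25 fibroblast members, 1 was lower and 2 were higher, where 13.3% and 3.34% of genes tested were, and the median gene itself had a log2 ratio of -0.34. Hist4h4, an H4 gene, was the lower one, at 0.418, and Hist2h2aa2 (2.7 and 6.7 CPM, 2.44-fold) and Hist2h3c2 (2.71-fold) were the higher ones. The H4 genes Hist1h4h and Hist2h4 had ratios of 0.568 and 0.614, and the H2A gene Hist1h2ac had 1.61. Hist1h2bc stood at 368 and 287 and Hist1h1c at 91.1 and 65.6.

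Fibroblasts of the 2 libraries also fell in different clusters, with 69.4% of wild-type fibroblasts in cluster 10, which held 12 labelled knockout cells, and 61.0% of labelled knockout fibroblasts in cluster 25. Endothelial cells (231 and 375 cells) had a ratio of 1.15 (1.02 to 1.29), with 0 of 3 members lower against 6.65% of genes tested, and 0 higher against 3.75%, and Hist1h1c at a labelled knockout over wild-type ratio of 0.743. Smooth muscle cells and pericytes (398 and 1230 cells) had a ratio of 1.28 (1.16 to 1.41), with 0 of 5 members lower against 11.3% and 0 higher against 5.95%. There Hist3h2a and Hist1h2bc had labelled knockout over wild-type ratios of 0.546 and 0.724, and Hist1h1e a ratio of 1.87 (1.03 to 3.67). The libraries filled different clusters of this class too: 69.6% of wild-type and 1.63% of labelled knockout cells were in cluster 11, with sums of 440 and 433 CPM, and 13.8% and 86.7% in cluster 14, with sums of 516 and 366.

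**Figure D2:**
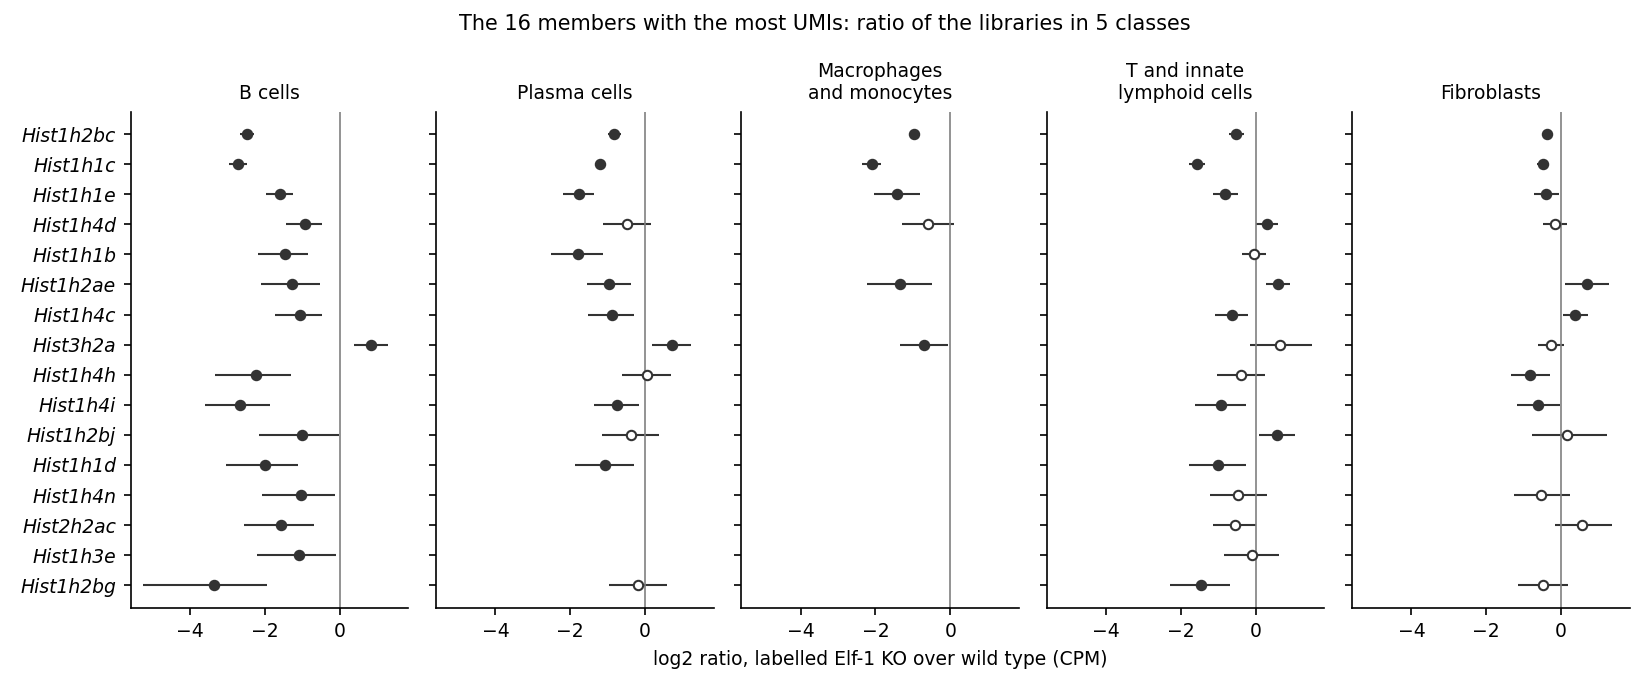
Log2 ratio of labelled knockout over wild type (CPM) for the 16 members with the most UMIs in 5 classes, with exact 95% counting intervals; open points have an interval that includes 0, and members under 50 UMIs in a class are left out. In B cells every point but Hist3h2a lies below 0, whereas in T cells and fibroblasts points lie on both sides.

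In the epithelium, the sums of 2908 and 1195 CPM rest on 63 cells in the library labelled knockout. Hist1h2bc stood at 933 and 725 and Hist1h1c at 444 and 127. Hist1h1b stood at 93.1 and 4.0, and the H3 sum at 189 and 17.9. Hist3h2a was the other way, at 23.6 and 101.5, on 162 and 51 UMIs. Most wild-type epithelial cells (85.4%) were in cluster 7 and most of the others (90.5%) in cluster 12, so the cells compared differ in more than their library.

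Grouped by annotated 3′ end, members were lower in the library labelled knockout in each group over all kept cells. Members ending near the stem-loop summed to 152 and 38.7 CPM (3.93-fold), those running on to a poly(A) signal to 595 and 177 (3.36-fold) and those running on without one to 174 and 49.0 (3.55-fold). Members with no annotated stem-loop other than Hist1h2bc stood at 163 and 35.8 (4.56-fold), and with Hist1h2bc this group was 2.602-fold apart.

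Within classes the groups separated. In B cells the members with a poly(A) signal stood at 1112 and 278 CPM (4.01-fold) and those ending near the stem-loop at 111 and 40.0 (2.77-fold). In T cells the members with a poly(A) signal stood at 669 and 438 (1.53-fold), whereas those ending near the loop stood at 204 and 215, a ratio of 0.948. In fibroblasts the wild-type over labelled knockout ratios were 1.26 and 0.875 for the same 2 groups, and in macrophages and monocytes 3.15 and 2.10. These forms are those of the annotation, and the 3′ ends actually captured were not analysed here.

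Over all kept cells, 40 S phase genes (replication factors such as Mcm2 and Pcna) were also lower in the library labelled knockout, at 933 and 421 CPM with 31 of 40 lower against 18.3% of all genes, whereas within B and T cells their sums were higher. In B cells, S phase genes summed to 655 and 843 CPM, 1.29-fold higher in the library labelled knockout. Of 21 tested there, 0 were lower and 0 higher, where 4.65% and 4.77% of all genes tested were. In T cells they summed to 1430 and 2011, 1.41-fold higher, with 3 of 30 higher, where 5.23% of all genes tested in the class were. In macrophages and monocytes they summed to 438 and 295, with 5 of 12 lower against 6.43% of genes tested, and in fibroblasts to 381 and 260. G2 and M phase genes in T cells stood at 3602 and 4923, with 8 of 43 higher against the same 5.23%.

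Cells were then ordered by the number of S phase UMIs after thinning to 1000 UMIs. In T cells with 0, 1, 2 to 3 and at least 4 S phase UMIs, the wild-type library had 1.24, 1.28, 1.41 and 4.82 member UMIs per 1000, over 349, 271, 141 and 33 cells. The library labelled knockout had 0.518, 0.662, 0.795 and 2.47, over 359, 216, 146 and 57 cells. The top group was therefore several-fold above the rest in both libraries, and the wild-type level was the higher one in each group. In the wild-type library Hist1h1b had 0.879 UMIs per 1000 in the top group and 0 UMIs in the bottom one, where 3 UMIs would give 0.00860. Hist1h1c, by contrast, had 0.424 and 0.378.

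Too few B cells had at least 4 S phase UMIs to give a level, so only the groups over which T cells also differed little can be compared. Wild-type B cells with 0, 1 and 2 to 3 S phase UMIs had 2.90, 2.95 and 2.74 member UMIs per 1000, and labelled knockout B cells had 0.692, 0.746 and 0.550. Wild-type germinal centre B cells, the dividing B cells of the follicle, had 2.29, 2.40, 2.17 and 2.53 over the 4 groups, on 24, 43, 46 and 144 cells. Their members other than Hist1h1c and Hist1h2bc went from 0.792 to 1.07, 1.35 and 2.07, while Hist1h2bc went from 1.13 to 0.208, so the level sum covers opposite trends. The same members without these 2 genes stood at 0.607, 0.694, 0.759 and 3.88 in wild-type T cells, and at 0.899, 0.959 and 0.873 in the first 3 groups of wild-type B cells. Wild-type epithelial cells had 3.39, 6.22, 7.89 and 8.59. Wild-type fibroblasts had 0.653, 0.613 and 0.540 in the first 3 groups, and labelled knockout fibroblasts 0.524, 0.477 and 0.324.

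**Figure D3:**
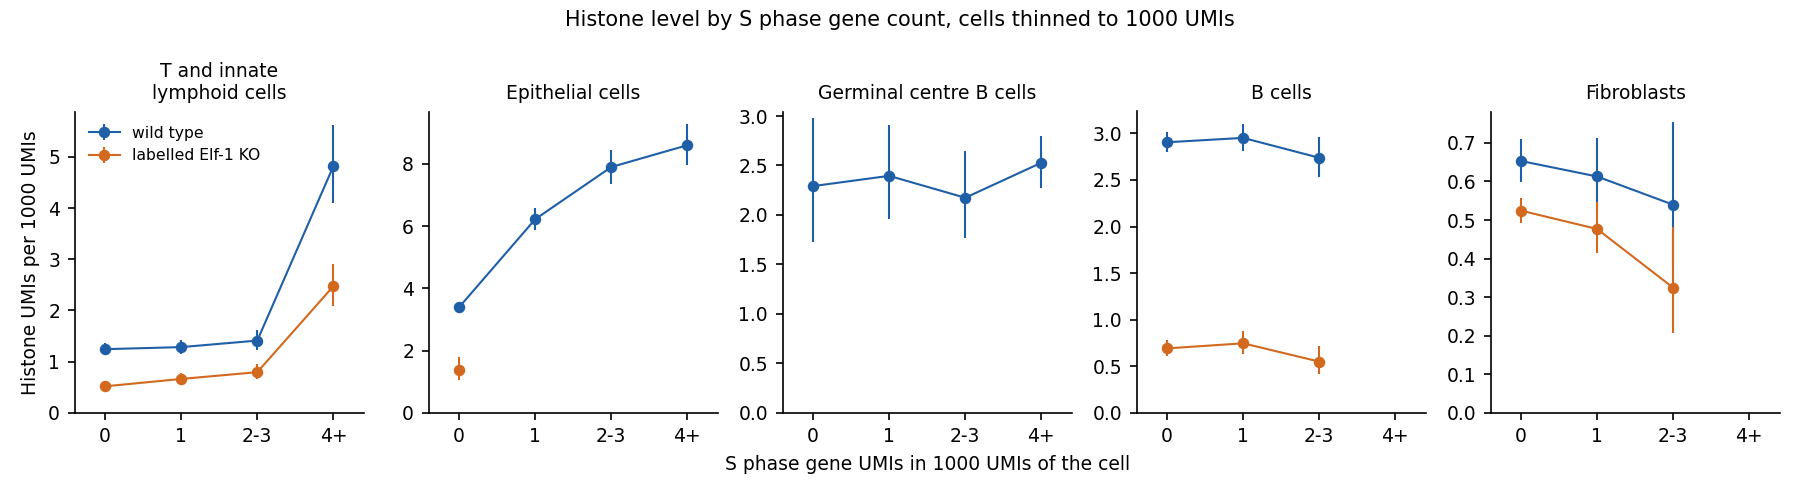
Member UMIs per 1000 UMIs in cells with 0, 1, 2 to 3 and at least 4 S phase UMIs, by class and library, with exact 95% counting intervals. T cells with at least 4 S phase UMIs reach 4.82 (wild type) and 2.47 (labelled knockout), whereas B cells stay between 2.74 and 2.95 (wild type) over the first 3 groups.

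Across barcodes, the histone level differed with the share of mitochondrial (mt-) transcripts, a share that is often high in damaged cells. Among all barcodes with at least 500 UMIs, wild-type members stood at 1369 CPM under 5% mt, 3117 at 5 to 10%, 5008 at 10 to 25% and 2623 above 25%. The library labelled knockout stood at 518, 671, 790 and 369. The 10 to 25% group was thus 3.66-fold (3.56 to 3.76) above the lowest group in the wild-type library and 1.53-fold (1.33 to 1.75) in the other. The members' summed level is over all barcodes, and the groups held 7159, 519, 519 and 438 wild-type barcodes and 8965, 734, 230 and 83 labelled knockout barcodes. Kept epithelial cells made up 403 of the 519 wild-type barcodes at 10 to 25% mt.

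The gradient was not shared by every nuclear gene group. S phase genes at 10 to 25% mt were 0.950 and 0.970 times their level under 5% in the wild-type and labelled knockout libraries. The replication-independent histone variants, most of which are polyadenylated and made throughout the cell cycle, were 0.614 and 0.640 times theirs. Small structural RNA genes, 743 genes led by the 7SK RNA Rn7sk, were 7.11 and 2.30 times theirs. Within wild-type epithelial cells alone, over 405, 245 and 403 cells, members stood at 2158, 3702 and 5695 CPM, so the gradient was present within that class, at 2.64-fold.

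Gene by gene, 45 of 50 members were at least 2-fold higher at 10 to 25% mt than under 5% in the wild-type library, and 0 were lower, where 19.7% and 17.1% of all genes were, with a median log2 ratio of 2.97 against 0.04. Hist1h4f (21.8-fold), Hist1h2ah (21.5-fold), Hist2h2bb (13.9-fold), Hist1h2bk (13.6-fold) and Hist1h4n (13.1-fold) led. Among members that did not pass, the abundant Hist1h1c went from 310 to 590 (1.90-fold) and Hist1h2bc from 496 to 747 (1.51-fold). Hist3h2a stood at 0.858 (interval 0.527 to 1.32). In wild-type epithelial cells 38 of 41 members were higher and 0 lower by the 2-fold rule, where 14.2% and 14.7% of genes were. Within that class Hist1h4f was 8.09-fold, Hist1h2ah 6.74-fold and Hist1h1c 1.74-fold higher. Hist1h2bc was slightly lower there, at 947 and 813 CPM (0.858-fold, interval 0.793 to 0.928), so its rise over all barcodes was not present within the epithelium.

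In the library labelled knockout, which had 230 barcodes at 10 to 25% mt against 519, 4 of 36 members were higher at that share, near the 10.7% of all genes, and 0 were lower, against 4.18%. The 4 were Hist1h1e (6.03-fold), Hist1h2ac (5.29-fold), Hist1h3i and Hist1h4h. With zero counts set to 3, the median log2 ratio was 1.58 for the members and 0.40 for all genes. Many members had 0 UMIs at that share, among them Hist1h2bg, Hist1h4i and Hist1h4n. The setting raises their ratios, so the members' median does not show that a typical member was higher. In its fibroblasts 1 of 19 members was higher and 0 lower, where 7.4% and 4.59% of genes were. The medians with the same setting were 2.71 and 1.21, over only 50 barcodes at 10 to 25% mt. Many members, such as Hist3h2a and Hist1h2ae, had 0 UMIs in those barcodes, so the median does not show higher members.

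The gradient in the wild-type library was steepest for members whose annotated transcript ends near the stem-loop. Members ending near the stem-loop were 8.58-fold higher at 10 to 25% mt, those running on without a signal 6.52-fold and those running on to a poly(A) signal 3.22-fold. Members without an annotated stem-loop other than Hist1h2bc were 7.08-fold higher. In the library labelled knockout the same 4 groups were at 1.24, 2.96, 1.78 and 1.54. Within wild-type epithelium they were at 5.87, 5.54, 2.79 and 5.47.

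**Figure D4:**
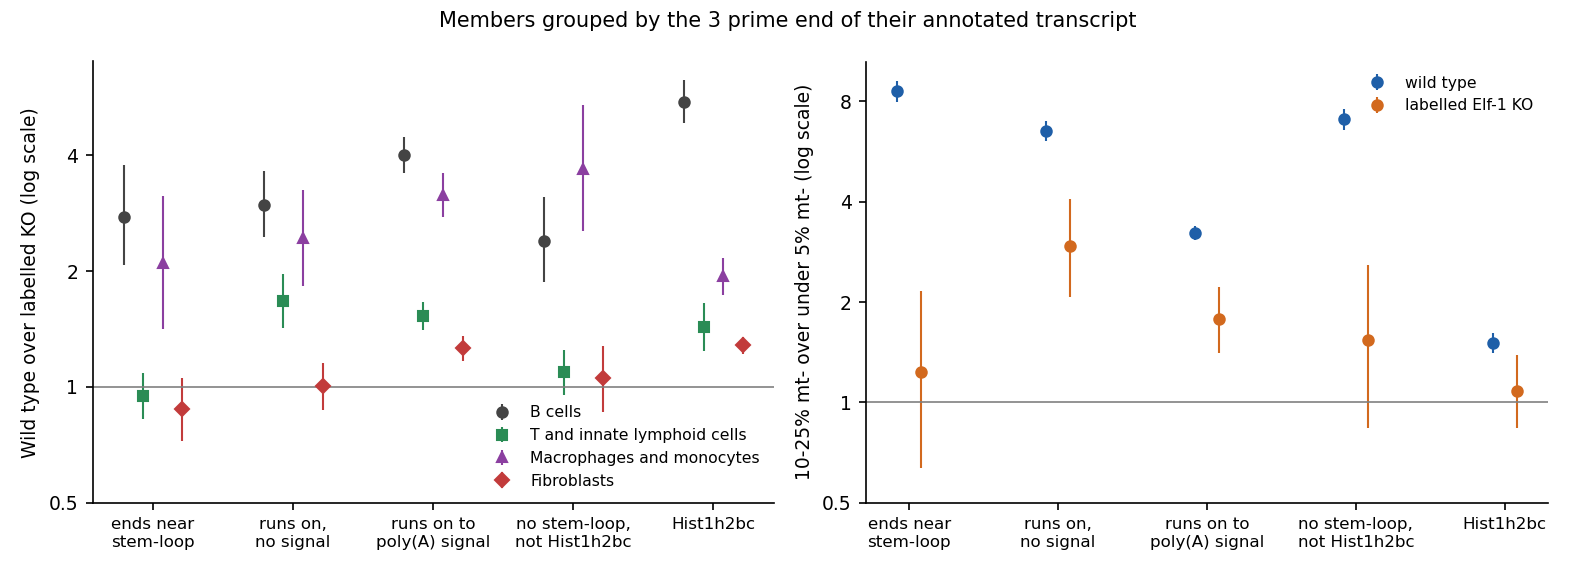
Members grouped by the form of the annotated 3′ end, on log axes with exact 95% counting intervals: on the left, wild type over labelled knockout in 4 classes, and on the right, barcodes with 10 to 25% mt over those under 5% in each library. In T cells the members ending near the stem-loop lie at 0.948, and on the right the same members lie at 8.58 in the wild-type library and 1.24 in the library labelled knockout.

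The gap between the libraries over all barcodes was present at each mt share. Wild type over labelled knockout was 2.64 under 5% mt, 4.65 at 5 to 10%, 6.34 at 10 to 25% and 7.11 above 25%. In cells under 5% mt the ratio was 4.13 in B cells, 2.66 in dendritic cells, 2.59 in neutrophils, 2.48 in macrophages and monocytes, 1.97 in plasma cells, 1.34 in T cells, 1.27 in smooth muscle cells, 1.22 in fibroblasts and 1.16 in endothelial cells. The class ratios were therefore as large, or nearly so, without the barcodes of higher mt share. At 5 to 10% mt the ratio was 3.60 in B cells (2.62 to 5.03), and in fibroblasts it was 0.764, with an interval of 0.473 to 1.19 that includes 1.

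**Figure D5:**
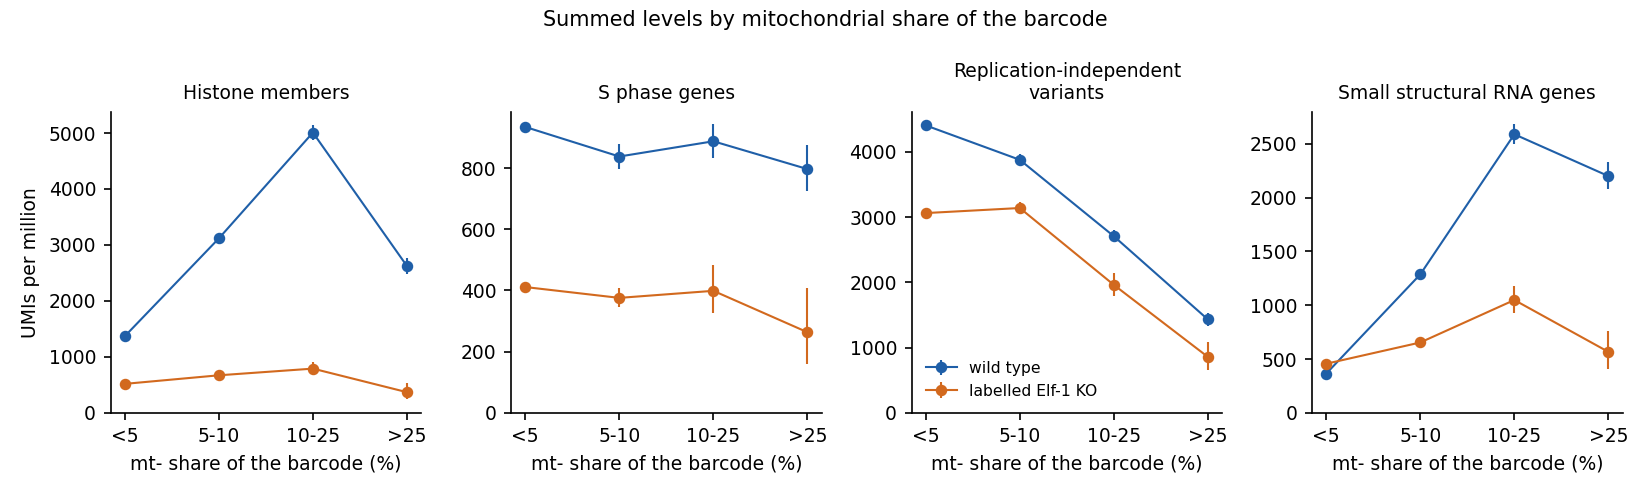
Summed CPM of the members, of S phase genes, of replication-independent variants and of small structural RNA genes by the share of mitochondrial UMIs of the barcode, for each library, with exact 95% counting intervals. The members go from 1369 under 5% to 5008 at 10 to 25% in the wild-type library and from 518 to 790 in the library labelled knockout, whereas S phase genes stay near their first level up to 25%.

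Genes that make and handle histone messages showed little of the gap. Of 17 genes for histone mRNA transcription and processing tested over all kept cells, 0 were lower and 0 higher by the 2-fold rule. By that rule 18.3% of all genes were lower and 7.29% higher. The median log2 ratio of the list was -0.52, against -0.25 for all genes. In B cells 1 of 14 tested was higher and 1 lower, where 4.77% and 4.65% of all genes tested were. Npat, the cyclin E-CDK2 substrate that activates histone gene transcription, was the higher one in the library labelled knockout (11.2 and 23.8 CPM). Eri1, an exonuclease of histone mRNA decay, was the lower one (31.3 and 15.4). Slbp, which encodes the stem-loop binding protein, stood at 52.0 and 86.9 in B cells, 1.67-fold higher. In T cells 0 of 14 passed in either direction, where 3.58% of all genes tested were lower and 5.23% higher.

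Histone chaperones, which carry histones to chromatin, had 2 of 13 genes lower over all kept cells, near the 18.3% of all genes. Replication-independent variants such as H3f3a and H2afz summed to 4348 and 3098 CPM over all kept cells, with 1 of 10 lower against the same 18.3%. In B cells they summed to 7031 and 5058, with 0 lower and 0 higher of 8, where 4.65% and 4.77% of all genes tested were. The variants therefore differed by less than the replication-dependent members in these cells.

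Small structural RNA genes, which went with the members across mt shares, went with them between the libraries in some classes and not in others. In fibroblasts they stood at 380 and 634 CPM, in smooth muscle cells at 210 and 449 and in endothelial cells at 428 and 748, higher in the library labelled knockout, as against lower members. In B cells they stood at 386 and 321, in T cells at 784 and 682, in plasma cells at 159 and 118 and in epithelial cells at 1076 and 673, lower there as the members were. In macrophages and monocytes they stood at 251 and 231 (ratio interval 0.824 to 1.03) and in dendritic cells at 433 and 432. Neutrophils had 140 and 160, not lower in the library labelled knockout as their members were.

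Across the classes with at least 40 cells, the summed members were ranked beside other lists. Over 13 wild-type classes Spearman's rank correlation with the S phase sum was 0.758 and with the G2 and M sum 0.791. Over 12 classes of the library labelled knockout these were 0.720 and 0.434. The rank correlation with small structural RNA genes was 0.670 and 0.699 in the wild-type and labelled knockout libraries, with replication-independent variants 0.731 and 0.399, with heat shock and immediate early genes 0.582 and 0.699, and with the median mt share 0.357 and 0.713, so no list stood clearly apart in both. The classes share a library and depth, so the values are descriptions. Among 9708 genes with at least 500 UMIs, the 5 whose class pattern was most like the member sum were Mrpl50 (mean correlation 0.877), Elac2 (0.872), Hsp90ab1 (0.871), Rbm10 (0.869) and Mir5136 (0.852).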

How the data were processed

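Raw UMI counts per gene and barcode were deposited by the authors, as whole numbers with no normalization. The submitters' processing notes name cutadapt 1.17, STAR 2.6.1a, featureCounts 2.0.1 and GRCm38. Neither they nor the labels state the annotation release, the strand setting or the treatment of multi-mapping reads. Barcodes needed 500 UMIs, 200 genes and at most 25% mt UMIs, which removed 117 and 239 barcodes on genes and 438 and 83 on mt share. Scrublet marked 0.0246% of wild-type barcodes, so the top 5% by score (406) were removed there, and 260 (2.67%) were removed from the other library.

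Both libraries were clustered together with scanpy 1.11.5 (2000 variable genes without the members, cell-cycle, ribosomal, mt-, haemoglobin, immunoglobulin and sex-linked genes, 30 components, 15 neighbours, Leiden resolution 1). The naming rule was adapted after the clusters were seen: leading genes were ranked by fold over the median cluster, and 3 of the leading 50 had to be markers. This gave 14 named classes, 9 of them with at least 100 cells in each library. Counts were summed per class and library and divided by the class total (CPM, per 1000000). Intervals are exact Poisson for levels and exact conditional binomial for ratios (95%). A gene was called past 2-fold where it had 50 UMIs and its interval excluded 1. Zero counts were set to 3 in medians. The interval code was tested on simulated data. Stem-loops and poly(A) signals were searched in GENCODE vM21 transcripts and motifs in RefSeq promoters. TMM factors came from edgeR 4.0.16 (R 4.3.3).

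The members and gene lists were chosen with earlier results of these data known. Members named in full were the 16 with the most UMIs over both libraries, plus, in each class with at least 100 cells a library, the 3 highest and 3 lowest ratios among members with 50 UMIs and an interval that excluded 1. Other members named were singled out after their values were seen.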

Additional observations from a re-analysis of the deposited data

Results flagged for a closer look

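In 6 of the abundant members the interval of the ratio lay above 1 in at least 1 class and below 1 in at least 1 other. The difference between classes was not tested, and every ratio below is labelled knockout over wild type from 1 library each. Hist1h1e, an H1 gene, stood at 1.87 in smooth muscle cells and pericytes, and at 0.331 in B cells, 0.759 in fibroblasts, 0.375 in macrophages and monocytes, 0.294 in plasma cells and 0.573 in T and innate lymphoid cells. Hist1h4c, an H4 gene, stood at 1.31 in fibroblasts, 0.476 in B cells, 0.541 in plasma cells and 0.641 in T cells. Hist1h4d stood at 1.23 in T cells and 0.525 in B cells.

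The H2A gene Hist1h2ae stood at 1.61 in fibroblasts and 1.52 in T cells, and at 0.417 in B cells, 0.394 in macrophages and monocytes and 0.517 in plasma cells. Hist1h2bj, an H2B gene, stood at 1.48 in T cells and 0.5002 in B cells. Hist3h2a stood at 1.79 in B cells and 1.64 in plasma cells, and at 0.615 in macrophages and monocytes and 0.546 in smooth muscle cells and pericytes, and after thinning its log2 ratio changed sign in plasma cells (-1.21) and in macrophages and monocytes (0.29). Hist1h2ae in T cells likewise changed sign after thinning (-0.15).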

How the results depend on the processing

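No paired analysis was possible because each genotype has 1 library. Values are log2 ratios of labelled knockout over wild type, and where they moved the cause was not tested. Over all kept cells the member sum (-1.60) was -1.48 with at most 10% mt UMIs, -2.00 after thinning, -1.36 with TMM scaling, -1.90 as a mean over cells, -1.67 without mt and immunoglobulin UMIs and -1.51 without Hist1h1c. Alternatives chosen after seeing the data gave -1.39 under 5% mt, -1.23 without epithelial cells and -1.78 without Hist1h1c and Hist1h2bc. In B cells (-2.03) TMM gave -2.18, leaving out Hist1h1c -1.83 and leaving out both -1.29. In fibroblasts (-0.28) kept doublets gave -0.39, TMM 0.0937 (reversed) and leaving out both -0.0756. In T cells (-0.43) thinning gave -0.93, the mean over cells -0.73, leaving out Hist1h1c -0.23 and leaving out both -0.16. In macrophages and monocytes (-1.27) thinning gave -1.42, TMM -1.13 and leaving out Hist1h1c -1.06. In all, 32 of 54 sums moved by less than their counting interval.

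The 48 members lower of 55 became 51 at 1.5-fold, 41 at 3-fold, 50 of 58 with 20 UMIs, 42 of 49 with 100 UMIs, 45 with TMM, 34 of 35 after thinning, 36 of 48 without epithelial cells and 40 of 50 under 5% mt. Of 499 values of named members, 389 moved by less than their interval, 104 by more and 6 changed direction: after thinning, Hist2h2aa2 over all kept cells (-0.25), Hist3h2a in macrophages (0.29) and plasma cells (-1.21) and Hist1h2ae in T cells (-0.15), and by the mean over cells Hist1h2ae (-0.0761) and Hist1h2ab (-0.34) in T cells. Depth limits the smaller classes, where 2 to 6 members reached 50 UMIs in dendritic cells, neutrophils, endothelial cells, smooth muscle cells and macrophages.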
